A study of Mus musculus with 16 samples.

Results

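The RNA of 9 genes that shape actin filaments was followed in cultured mouse intestinal epithelium with and without functional MYO5B, the motor that carries apical recycling vesicles along actin. The genes were chosen by name as Gsn, Scin and Capg of the gelsolin family, the formins Inf2 and Diaph1, the α-actinins Actn1 and Actn4, the tropomyosin gene Tpm1 and the transgelin gene Tagln2. They are 9 of the 54532 genes counted, and all 9 were detected in each of the 16 cultures and passed the filter on low counts.

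The cultures were enteroids, grown as pure epithelium out of crypts of the adult mouse jejunum, and each of the 4 groups held 4 cultures from separate mice. Whether different groups shared mice is not stated, and the cultures were compared as independent. By the methods, control and MYO5BΔIEC enteroids carried Vil1-CreERT2 and Myo5b flox/flox, whereas a figure legend of the study calls the controls healthy littermates. MYO5B(G519R) enteroids carried Vil1-CreERT2 with 1 floxed Myo5b allele and 1 allele with the G519R mutation. Cre was under the Vil1 promoter, which is active in intestinal epithelium, and was induced in both models with 1 µM 4-OH-tamoxifen for 24 h. MYO5BΔIEC enteroids then received vehicle or 100 nM Compound-1, an agonist that prefers the lysophosphatidic acid receptor LPAR5, for 2 days of differentiation. The methods give the controls ethanol in place of 4-OH-tamoxifen and the sample records give them no treatment, so tamoxifen exposure and MYO5B loss cannot be told apart in comparisons with control.

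Actin filaments grow by addition of subunits at their barbed ends and are continually cut, capped and crosslinked. Gelsolin family proteins sever filaments or cap their barbed ends in response to calcium, whereas formins nucleate unbranched filaments and stay bound to the growing barbed end. α-Actinins crosslink filaments and join them to adhesions, and tropomyosins and transgelins bind along the filament and stabilize it. In enterocytes, these proteins serve the microvilli of the brush border, the terminal web beneath it and the belt of actin at cell junctions.

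RNA levels are given as CPM, read counts scaled to a common library size by the TMM method over the 16 cultures. Between 27804968 and 40101729 reads were counted per culture, and no gene of the 9 had fewer than 433 counts, the value of Capg in 1 culture. Counts from mitochondrially encoded genes made up 6.41 to 10.4% of each control library and 3.79 to 6.63% of each of the other libraries. The lowest correlation between control cultures was 0.931. Control culture 1 stood apart in its summed enterocyte markers, at 3981 CPM against 13950 to 17510 in the other controls. The control level of Myo5b RNA was 189 ± 29.9 CPM (SD, n = 4), and the means were 128 ± 31.0 CPM for MYO5BΔIEC, 150 ± 17.0 for MYO5B(G519R) and 111 ± 26.8 for Compound-1-treated enteroids. It was counted over the whole gene, so these levels do not check the deletion of the floxed part. The Myo5b difference from control was -0.55 in MYO5BΔIEC (adjusted p = 0.0503 by edgeR) and -0.33 in MYO5B(G519R) (adjusted p = 0.109 by edgeR) on the log2 scale. Without control culture 1 both were called lower (adjusted p = 0.0155 and 0.0286 by edgeR), as was the first without MYO5BΔIEC culture 3 (adjusted p = 0.0203 by edgeR). Myo5b was called lower in MYO5BΔIEC under 6 of the 10 alternatives as well, and in MYO5B(G519R) with the length trend removed. In Compound-1-treated enteroids it was lower by -0.77 (adjusted p = 0.0146 by edgeR), a call lost without treated culture 4 (adjusted p = 0.0529 by edgeR). The 7 epithelial marker genes (Epcam, Cdh1, Krt8, Krt18, Krt19, Cldn7 and Vil1) summed to between 6750 and 16900 CPM, and the 13 fibroblast and smooth muscle markers to between 9.86 and 44.3 CPM, with Dcn, Col3a1 and Lum at 0 in all 16 cultures. The 9 immune markers summed to between 3.86 and 11.6 CPM, with Adgre1 at 0, and the 6 endothelial markers to between 1.04 and 3.12 CPM.

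Promoter sequence is shown first for the formin Inf2, which held the most matches to a searched motif, and for Actn4, the most abundant gene that was higher in the models. RefSeq promoter windows (GRCm38.p6) covered 8 of the 9 genes, and the 250 bases before each start were searched on both strands for GGAATG, the core recognized by TEAD factors, and for the CArG box bound by SRF, a factor that controls many actin genes. In the stretches below, capitals mark GGAATG or its reverse complement CATTCC.
Inf2 (chr12:112588568-112588640, plus strand): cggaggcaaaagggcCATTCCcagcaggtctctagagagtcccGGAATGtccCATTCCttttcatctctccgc
Actn4 (chr7:28962528-28962563, minus strand): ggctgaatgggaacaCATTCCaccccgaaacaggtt
The Inf2 stretch held 3 matches and ended 144 bases before the annotated gene, and the Actn4 stretch held 1 match, 188 bases outside the annotated gene. Tagln2 held 2 matches and Tpm1 held 1, both inside the annotated gene, where other transcripts begin farther upstream. Gsn, Scin, Capg and Actn1 held none in their windows. The core was found in 12.6% of all 32851 windows and in 14.4% of 27025 genes. The CArG box was in none of the 11 windows of the 8 genes, and in 1.47% of all windows. The genes with the TEAD core included Inf2 and Actn4, which were higher in both models, and Tpm1 and Tagln2, which did not pass the test. These matches describe letters in the sequence and not binding.

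Of the 9 genes, 6 were higher in MYO5BΔIEC than in control enteroids and none was lower. The 6 were Gsn, Capg, Inf2, Diaph1, Actn1 and Actn4, with log2 fold changes from 0.61 to 2.03, that is 1.53-fold to 4.08-fold. The same 6 genes were higher in MYO5B(G519R) enteroids, which were compared with the same control cultures, and Scin, Tpm1 and Tagln2 passed the test in neither model. In both models, all 4 cultures of each of the 6 genes lay above all 4 control cultures.

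Groups were compared 2 at a time by edgeR's quasi-likelihood test with Benjamini-Hochberg adjustment over all genes tested, and a gene was called at an adjusted p under 0.05. Over all 17951 genes tested in MYO5BΔIEC against control, 27.4% were called, 13.5% were called higher, and in 13.0% every model culture lay above every control culture. Over 17829 genes in MYO5B(G519R) against control, these shares were 26.8%, 13.1% and 13.6%. Genes called lower numbered 2483 in MYO5BΔIEC and 2437 in MYO5B(G519R). The median log2 fold change of the 9 genes was 0.79 in MYO5BΔIEC and 0.70 in MYO5B(G519R), beside -0.01 and -0.05 over all genes tested. The 9 genes are expressed above most genes, and among the 3299 genes with a mean of at least 70.7 CPM, the mean of the least abundant of the 9, 21.6% were called higher in each model. In these bulk cultures, a change in the proportion of a cell type and a change in RNA per cell cannot be told apart.

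Some markers of cell type were called between the models and control, as were 27.4% of all genes in MYO5BΔIEC and 26.8% in MYO5B(G519R). Control cultures had 6750 to 8409 CPM of summed epithelial markers, MYO5BΔIEC cultures 10000 to 10890 and MYO5B(G519R) cultures 8937 to 11180, with 4 and 3 of the 7 genes called higher. The 5 stem cell markers summed to 2247 to 6289 CPM in control cultures, against 821 to 1974 for MYO5BΔIEC and 1165 to 2500 for MYO5B(G519R), with 1 gene called lower in each model. Olfm4 was the most abundant of the 5 in control, at 1570 to 5712 CPM. It was at 318 to 1293 CPM in MYO5BΔIEC and 573 to 1801 CPM in MYO5B(G519R). The median log2 fold change of the 5 was 0.02 in MYO5BΔIEC and 0.30 in MYO5B(G519R). For 6 proliferation markers the sums were 1579 to 1904, 1083 to 1421 and 1330 to 1669 CPM, with 3 genes lower in MYO5BΔIEC and 2 in MYO5B(G519R). Their median log2 fold change was -0.38 in MYO5BΔIEC and 0.003 in MYO5B(G519R), so this list as a whole was not lower in MYO5B(G519R). Of 6 Paneth cell markers, 2 were lower in each model, and their sums in the same order of groups were 3245 to 7741, 3093 to 4475 and 3114 to 4065 CPM. The goblet cell list of 6 genes went both ways, with 2 higher and 2 lower in MYO5BΔIEC and 2 higher and 3 lower in MYO5B(G519R). Among 6 tuft cell markers tested, 1 was lower in each model. Among 7 enteroendocrine markers, 2 were higher in MYO5BΔIEC and 1 in MYO5B(G519R). The part of these markers in the results for the 9 genes was not tested.

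**Figure D1:**
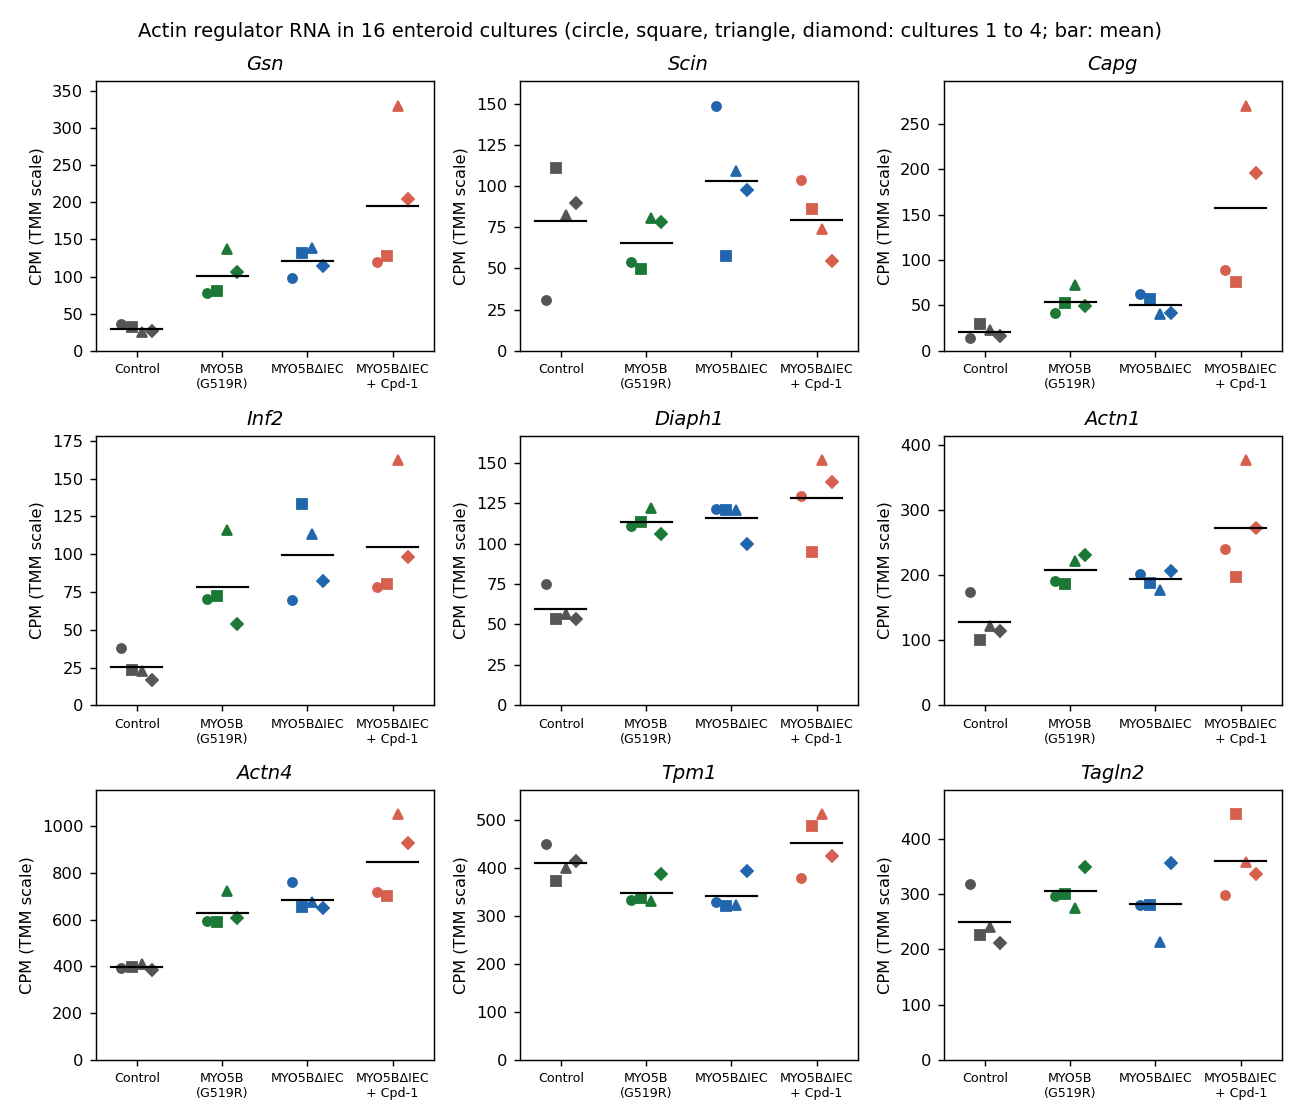
CPM (TMM scale) of the 9 genes in each culture of the 4 groups, with symbols for cultures 1 to 4 and a bar for the group mean. Gsn, Capg, Inf2, Diaph1, Actn1 and Actn4 lay above all control cultures in every model culture, whereas Scin, Tpm1 and Tagln2 overlapped with control in both models, and treated culture 3 was the highest for 7 of the 9 genes.

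Gsn (ENSMUSG00000026879, GRCm38 chromosome 2, 35256380 to 35307892, plus strand) encodes gelsolin, which severs filaments and caps their barbed ends. In the control cultures it was at 35.7, 32.5, 24.7 and 26.2 CPM. Its level in MYO5BΔIEC cultures was 98.7, 132, 139 and 114 CPM, and in MYO5B(G519R) cultures at 77.3, 80.8, 137 and 106 CPM. The lowest model culture was thus above the highest control culture by more than the whole range of the controls. The log2 fold change against control was 2.03 (SE 0.17, adjusted p = 0.000614 by edgeR) in MYO5BΔIEC and 1.75 (SE 0.20, adjusted p = 0.00182 by edgeR) in MYO5B(G519R). The 95% interval in MYO5BΔIEC, 1.66 to 2.40, overlapped that of Inf2, 1.38 to 2.60, and their order changed with the cultures kept. Without control culture 1, Inf2 was at 2.25 and Gsn at 2.13 in MYO5BΔIEC, and at 1.93 and 1.88 in MYO5B(G519R). Inf2 was also above Gsn without MYO5BΔIEC culture 1 or 4 and, in MYO5B(G519R), without its culture 4.

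Capg (ENSMUSG00000056737, chromosome 6, 72544391 to 72562983, plus strand) encodes CapG, a gelsolin relative that caps barbed ends without severing. Its control cultures were at 14.1, 29.4, 22.4 and 16.05 CPM. Vehicle-treated MYO5BΔIEC cultures were at 62.2, 56.7, 40.6 and 41.6 CPM, and MYO5B(G519R) cultures at 41.5, 52.7, 73.0 and 49.2 CPM. No model culture overlapped with the controls. Capg was higher by a log2 fold change of 1.30 (SE 0.25, adjusted p = 0.00454 by edgeR) in MYO5BΔIEC and 1.401 (SE 0.25, adjusted p = 0.00459 by edgeR) in MYO5B(G519R).

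Scin (ENSMUSG00000002565, chromosome 12, 40059769 to 40134228, minus strand) encodes scinderin, also called adseverin, a calcium-dependent severing protein. Unlike Gsn and Capg, its groups overlapped widely. Control cultures were at 31.0, 111, 82.4 and 89.9 CPM, and MYO5BΔIEC cultures at 149, 57.2, 109 and 97.5 CPM. MYO5B(G519R) cultures were at 53.7, 49.4, 80.8 and 78.3 CPM. The wide control range came from culture 1, which was the lowest of all 16. Its log2 fold change was 0.40 (95% interval -0.41 to 1.199, adjusted p = 0.458 by edgeR) in MYO5BΔIEC and -0.26 (95% interval -1.003 to 0.48, adjusted p = 0.603 by edgeR) in MYO5B(G519R). Without control culture 1, Scin was lower in MYO5B(G519R) by a log2 fold change of -0.50 (adjusted p = 0.0422 by edgeR), while in MYO5BΔIEC its value was 0.13 without that culture and was still not called (adjusted p = 0.722 by edgeR).

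The summed level of 10 enterocyte markers was also lowest in control culture 1, at 3981 CPM against 13950 to 17510 in the other controls. Across the MYO5B(G519R) cultures this sum was 6433 to 10110 CPM, and across MYO5BΔIEC cultures 7447 to 14200 CPM. Of the 10 markers, 2 were higher and none lower in MYO5BΔIEC, and 1 was higher and 1 lower in MYO5B(G519R). The part of enterocyte abundance in the Scin values was not tested.

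Inf2 (ENSMUSG00000037679, chromosome 12, 112588784 to 112615557, plus strand) encodes inverted formin 2, which both polymerizes and severs actin. The study named Inf2 on these same cultures, so its change is not independent evidence. Its control cultures were at 38.1, 23.3, 22.8 and 16.8 CPM. Levels in MYO5BΔIEC cultures were 69.5, 133, 114 and 82.0 CPM, and MYO5B(G519R) cultures at 70.3, 72.6, 116 and 53.7 CPM. The models and controls did not overlap, although the spread within each model was about as wide relative to its mean as in control (coefficients of variation 29.3% and 34.0%, against 35.9%). Inf2 was higher, with a log2 fold change of 1.99 (SE 0.28, adjusted p = 0.00168 by edgeR) in MYO5BΔIEC and 1.63 (SE 0.29, adjusted p = 0.00426 by edgeR) in MYO5B(G519R).

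Diaph1 (ENSMUSG00000024456, chromosome 18, 37843601 to 37935476, minus strand) encodes the formin mDia1. Control cultures were at 75.2, 53.5, 56.6 and 53.5 CPM. MYO5BΔIEC cultures were at 122, 121, 121 and 99.6 CPM, and MYO5B(G519R) cultures at 111, 114, 122 and 106 CPM. The 8 model cultures thus lay in a narrow band above all controls. Diaph1 was higher by a log2 fold change of 0.96 (SE 0.15, adjusted p = 0.00226 by edgeR) in MYO5BΔIEC and 0.92 (SE 0.13, adjusted p = 0.00226 by edgeR) in MYO5B(G519R).

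Actn4 (ENSMUSG00000054808, chromosome 7, 28893248 to 28962340, minus strand) encodes α-actinin-4, a nonmuscle crosslinker of junctional and cortical actin. Its control cultures agreed closely, at 394, 399, 411 and 386 CPM. The MYO5BΔIEC cultures were at 762, 654, 675 and 651 CPM, and MYO5B(G519R) cultures at 593, 589.9, 723 and 606 CPM. No model culture came near the control range. Actn4 was higher in both models, by 0.79 on the log2 scale (SE 0.13, adjusted p = 0.00291 by edgeR) in MYO5BΔIEC and 0.66 (SE 0.12, adjusted p = 0.00476 by edgeR) in MYO5B(G519R).

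Actn1 (ENSMUSG00000015143, chromosome 12, 80167547 to 80260371, minus strand) encodes α-actinin-1, which is enriched at focal adhesions and stress fibers. Control cultures were at 174, 100.5, 121 and 114 CPM. MYO5BΔIEC cultures were at 202, 188, 177 and 207 CPM, and MYO5B(G519R) cultures at 191, 187, 222 and 231 CPM. Control culture 1 nearly reached the lowest MYO5BΔIEC culture, so the groups were separated by a small gap. Actn1 was higher, by 0.61 on the log2 scale (SE 0.17, adjusted p = 0.0253 by edgeR) in MYO5BΔIEC and 0.70 (SE 0.17, adjusted p = 0.0160 by edgeR) in MYO5B(G519R). The call in MYO5BΔIEC was lost without control culture 2, 3 or 4 or without MYO5BΔIEC culture 1, 2 or 4, at adjusted p values of 0.0510 to 0.0798 by edgeR. The call in MYO5B(G519R) was lost without control culture 3 (adjusted p = 0.0521 by edgeR) or 4 (adjusted p = 0.0512 by edgeR).

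Tpm1 (ENSMUSG00000032366, chromosome 9, 67022590 to 67049406, minus strand) encodes α-tropomyosin isoforms, which run along the filament and govern access of myosin and cofilin. Its control cultures were at 451, 373, 401 and 415 CPM. For MYO5BΔIEC the values were 329, 321, 323 and 394 CPM, and MYO5B(G519R) cultures at 334, 338, 331 and 388 CPM. In both models, 3 cultures lay below every control culture and culture 4 lay within the control range. The log2 fold change of -0.26 (SE 0.14, adjusted p = 0.195 by edgeR) in MYO5BΔIEC and of -0.24 (SE 0.12, adjusted p = 0.163 by edgeR) in MYO5B(G519R) did not pass the test. After correction for a trend with gene length, both passed, at -0.39 (adjusted p = 0.0364 by edgeR) and -0.36 (adjusted p = 0.0288 by edgeR). At 6485 bases, Tpm1 is the longest of the 9 genes, and the median length of the genes tested in MYO5BΔIEC against control was 3463 bases.

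Tagln2 (ENSMUSG00000026547, chromosome 1, 172500047 to 172507380, plus strand) encodes transgelin-2, a small actin-binding protein of the calponin family. Control cultures were at 318, 225, 241 and 212 CPM. The 4 values of MYO5BΔIEC were 281, 281, 213 and 357 CPM, and MYO5B(G519R) cultures at 296, 300.1, 275 and 349 CPM. Control culture 1 was above 3 of the 4 cultures of each model. The log2 fold change was 0.19 (SE 0.19, adjusted p = 0.494 by edgeR) in MYO5BΔIEC and 0.29 (SE 0.15, adjusted p = 0.183 by edgeR) in MYO5B(G519R). Without control culture 1, Tagln2 was higher in MYO5B(G519R) by a log2 fold change of 0.46 (adjusted p = 0.00467 by edgeR), and remained uncalled in MYO5BΔIEC (0.33, adjusted p = 0.131 by edgeR).

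**Figure D2:**
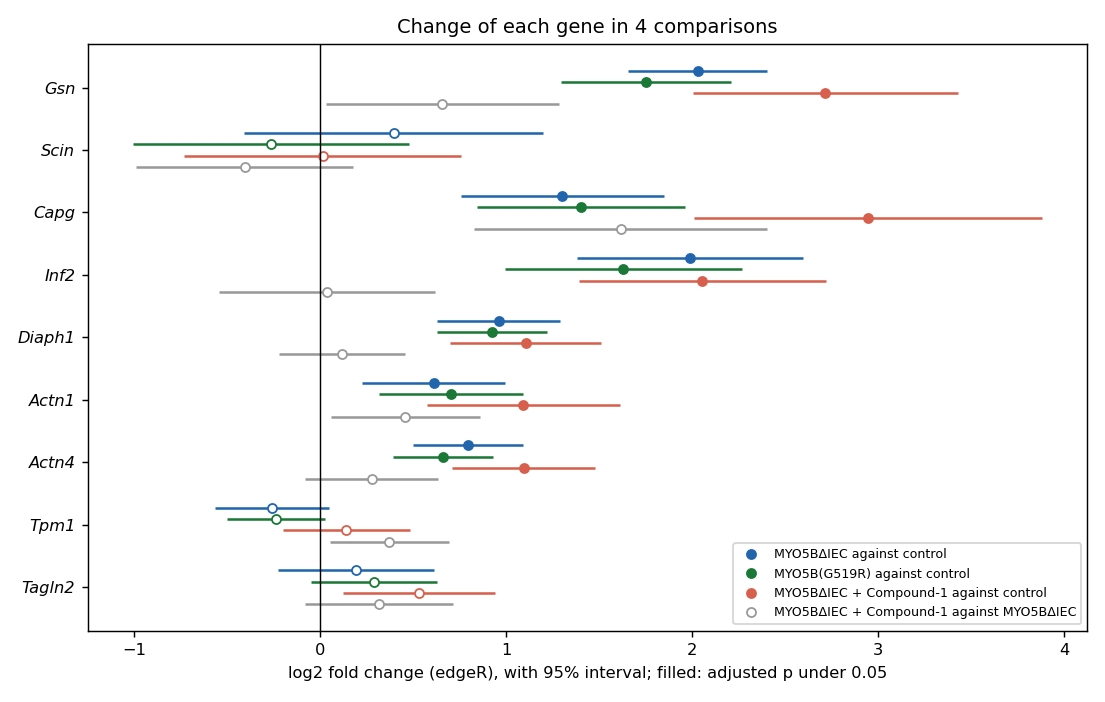
Log2 fold change of each gene by edgeR with its 95% interval in 4 comparisons, with filled points for an adjusted p under 0.05. The 6 called genes are filled in the 3 comparisons with control, and every point of Compound-1-treated against vehicle-treated MYO5BΔIEC enteroids is open, the farthest from 0 being Capg at 1.62.

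The direct comparison of the models addresses whether complete loss and the point mutation differed. None of the 9 genes was called between MYO5B(G519R) and MYO5BΔIEC enteroids, where 0.00557% of 17943 genes, a single gene, was called. Scin had an unadjusted edgeR p of 0.0263 (adjusted p = 0.838), and 4.30% of all genes had an unadjusted p under 0.05. Its log2 fold change was -0.65, MYO5B(G519R) minus MYO5BΔIEC, with a 95% interval of -1.21 to -0.09. For Gsn the interval was -0.68 to 0.13 and for Inf2 it was -0.91 to 0.20, so differences within these bounds remain possible. The narrowest intervals were those of Diaph1, -0.26 to 0.20, and Actn1, -0.14 to 0.34.

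Compound-1 was given to MYO5BΔIEC enteroids to look for genes that LPAR5 activation affects directly in enterocytes. Against vehicle-treated MYO5BΔIEC cultures, 0 of the 9 genes and 0% of 18037 genes were called by edgeR, while DESeq2 called 91 genes and 1 of the 9, Capg. At an unadjusted edgeR p under 0.05 there were 4 of the 9 genes, Gsn, Capg, Actn1 and Tpm1, and 7.51% of all genes. All 4 had a higher mean with Compound-1.

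Capg had the highest log2 fold change of the 9, at 1.62 (SE 0.36, 95% interval 0.83 to 2.40, adjusted p = 0.532 by edgeR, unadjusted p = 0.00085). Treated cultures were at 88.8, 76.3, 270.5 and 196 CPM, all above the highest vehicle-treated culture, 62.2 CPM, and it was the single gene of the 9 with no overlap, as seen for 1.59% of all genes. Capg passed with DESeq2 (DESeq2 adjusted p = 0.0108) and without the filter on low counts (adjusted p = 0.0355 by edgeR). The adjusted p was 0.286 to 0.583 with the edgeR alternatives that kept a filter, and 0.747 to 0.777 with limma. Without treated culture 3 the log2 fold change was 1.23.

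Gsn in the treated cultures was at 119.9, 128, 330.3 and 204 CPM. Cultures 1 and 2 lay inside the vehicle-treated range of 98.7 to 139 CPM, and culture 3 was the highest of the 16. Its log2 difference was 0.66 (95% interval 0.03 to 1.28, adjusted p = 0.654 by edgeR), and 0.28 without treated culture 3. For Actn1, treated cultures were at 241, 197, 377 and 273 CPM and the difference was 0.46 on the log2 scale (adjusted p = 0.612 by edgeR), or 0.26 without culture 3.

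Tpm1 with Compound-1 was at 380.3, 489, 512 and 426 CPM, which is a mean of 452 against 342 in vehicle-treated and 410.1 in control cultures. The log2 fold change against vehicle was 0.37 (95% interval 0.06 to 0.69, adjusted p = 0.601 by edgeR). Scin was the single gene of the 9 with a lower mean after Compound-1, at 103, 85.8, 73.9 and 54.2 CPM, with a log2 fold change of -0.40 (adjusted p = 0.824 by edgeR). Inf2 was at 78.2, 80.5, 162 and 98.4 CPM and its log2 fold change of 0.04 had a 95% interval of -0.54 to 0.62. For Diaph1 the interval was -0.22 to 0.46, for Actn4 -0.08 to 0.63, and for Tagln2 -0.08 to 0.72.

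Treated cultures 3 and 4, which had the highest Capg and Gsn, also had the highest summed level of 6 goblet cell markers, 5990 and 4231 CPM, against 1788 to 2555 CPM in the other 14 cultures. The 6 markers did not move together. Against control, 2 were called higher and 2 lower in treated enteroids, and against vehicle none was called. Fcgbp was at 917 to 3593 CPM in treated and 277 to 889 in control cultures, and Agr2 at 142 to 178 and 206 to 291. Treated culture 3 had in addition the highest epithelial marker sum (16900 CPM) and the lowest sums of 5 stem cell markers (511 CPM) and 6 proliferation markers (756 CPM). Olfm4, the most abundant of these stem cell markers in control, was at 228 to 1045 CPM in the treated cultures. The part of these cell states in the Capg, Gsn and Actn1 values was not tested.

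Against control enteroids, which are the cultures already compared with both models, Compound-1-treated enteroids had the same 6 genes higher and none lower, where 29.4% of 17937 genes were called and 15.7% were called higher. All 4 treated cultures lay above all control cultures for these 6 genes, as they did for 14.3% of all genes. Capg had a log2 fold change of 2.95 (SE 0.42, adjusted p = 0.00398 by edgeR), Gsn of 2.72 (SE 0.32, adjusted p = 0.00398 by edgeR) and Inf2 of 2.06 (SE 0.30, adjusted p = 0.00398 by edgeR). Diaph1, Actn1 and Actn4 were higher by log2 fold changes of 1.09 to 1.11 (adjusted p 0.00415 to 0.00875 by edgeR).

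Tagln2 in treated cultures was at 299, 445, 358 and 337 CPM, and its log2 fold change of 0.53 against control was just outside the threshold (adjusted p = 0.0524 by edgeR). It passed without control culture 1 (adjusted p = 0.00678 by edgeR), without treated culture 1 (adjusted p = 0.0457 by edgeR), with DESeq2 (DESeq2 adjusted p = 0.0237), with filterByExpr (adjusted p = 0.0495 by edgeR), with all 4 groups in 1 fit (adjusted p = 0.0215 by edgeR) and with the length trend removed (adjusted p = 0.0280 by edgeR). Tpm1 (0.14, adjusted p = 0.528 by edgeR) and Scin (0.01, adjusted p = 0.979 by edgeR) did not pass.

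Levels of different genes were compared per gene length, as FPKM. In control enteroids Tagln2 was highest at 117 ± 23.9 FPKM (SD, n = 4), followed by Actn4 at 63.1 ± 1.88 and Tpm1 at 61.6 ± 5.43. Scin was at 25.4 ± 10.9 FPKM, Actn1 at 22.5 ± 6.02, Gsn at 9.19 ± 1.69, Diaph1 at 9.18 ± 1.73, Capg at 7.88 ± 2.63 and Inf2 at 5.06 ± 1.89. The ranges of Actn4 and Tpm1, of Scin and Actn1, and of each neighboring pair from Gsn to Inf2 overlapped, and the ranges were separated below Tagln2, below Tpm1 and below Actn1.

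The order shifted in the models. In MYO5BΔIEC enteroids Gsn, at 38.2 ± 5.94 FPKM, was next below Tpm1 and overlapped Actn1 (34.8 ± 2.20) and Scin (34.1 ± 12.3). Actn4 reached 111 ± 8.19 FPKM, which overlapped Tagln2 (135 ± 27.5), while Tpm1 was at 52.4 ± 4.94. In MYO5B(G519R) enteroids Actn4 was at 102 ± 10.5 FPKM and Tpm1 at 53.3 ± 3.75, and Gsn, at 31.5 ± 8.64, lay between Actn1 (37.3 ± 3.84) and Scin (21.7 ± 5.33) with overlap on both sides. Actn4 and Tpm1, which overlapped in control, did not overlap in any of the other 3 groups.

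The balance within families was measured as the log2 ratio of FPKM inside each culture, which is independent of library size, and was compared with control by a two-sided exact permutation test whose smallest possible p is 0.0286. The ratio of Inf2 to Diaph1 was 0.659, 0.566, 0.525 and 0.408 in the control cultures and 0.743, 1.44, 1.23 and 1.07 in MYO5BΔIEC cultures. These did not overlap, and the log2 ratio differed by 1.03 (exact permutation p = 0.0286, adjusted over 6 tests 0.0857). In MYO5B(G519R) cultures the ratio ranged from 0.658 to 1.23, with 1 culture inside the control range, and the difference was 0.70 (exact permutation p = 0.0571, adjusted 0.0857).

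The ratio of Gsn to the sum of Scin and Capg was 0.211 to 0.228 in control cultures 2, 3 and 4 and 0.708 in control culture 1. It was 0.421 to 1.01 in MYO5BΔIEC and 0.685 to 0.775 in MYO5B(G519R), and control culture 1 fell inside both ranges. The differences of 1.29 and 1.31 in the log2 ratio each had an exact permutation p of 0.0571 (adjusted 0.0857). The ratio of Actn1 to Actn4 did not separate the groups, with differences of -0.15 in MYO5BΔIEC (exact permutation p = 0.6) and 0.07 in MYO5B(G519R) (exact permutation p = 0.714). No ratio passed after adjustment.

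**Figure D3:**
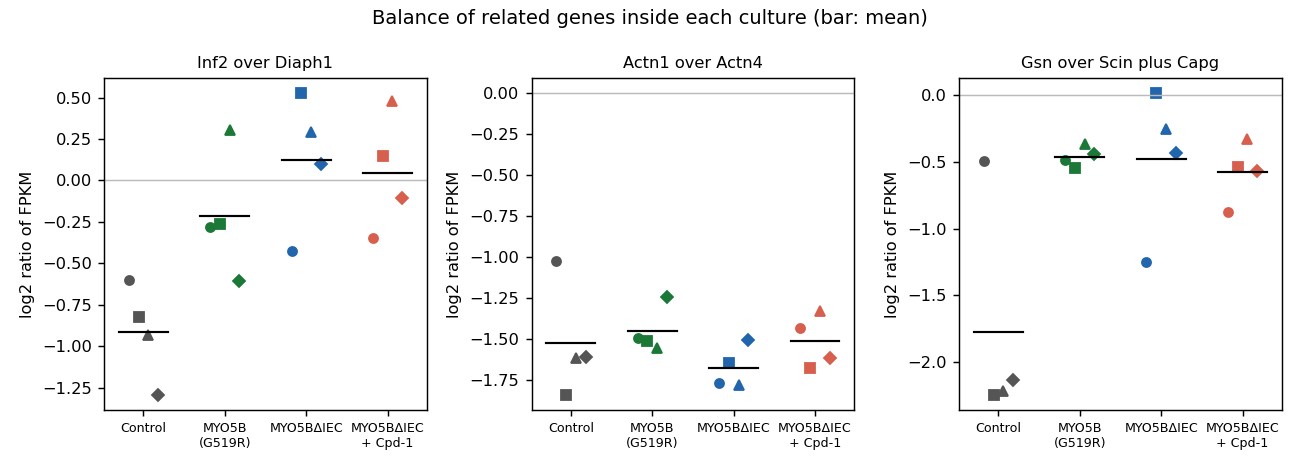
Log2 ratios of FPKM inside each culture for Inf2 over Diaph1, Actn1 over Actn4, and Gsn over the sum of Scin and Capg, with a bar for each group mean. The mean Inf2 over Diaph1 ratio went from -0.91 in control to 0.12 in MYO5BΔIEC, while control culture 1 stood apart from the other controls for Gsn over Scin plus Capg.

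Other regulators of actin were described from 13 lists by role, of which 112 genes were in the table. Leaving out the 9 genes, 93 were tested in each comparison with control. In MYO5BΔIEC 31 of these 93 were higher (33.3%, beside 13.5% of all genes) and 3 were lower, and the median of the 93 was 0.38 on the log2 scale. In MYO5B(G519R) 30 were higher (32.3%, beside 13.1%) and 5 were lower, with a median of 0.30. In Compound-1-treated against control enteroids 40 were higher (43%, beside 15.7%) and 3 lower, with a median of 0.57. The shares over all genes were not matched to the levels of the 93. Among the 3299 genes with a mean of at least 70.7 CPM, 21.6% were higher in each model and 25.8% in treated enteroids. The lists were chosen with earlier results of these data known. Between treated and vehicle-treated MYO5BΔIEC enteroids, and between the models, edgeR called none.

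In the gelsolin family, 6 of 8 genes (75%) were higher in both models, namely Gsn, Capg, Vil1, Vill, Svil and Flii, and none was lower. Vil1, which encodes villin of the microvillus core and is also one of the epithelial markers, had a log2 fold change of 1.08 (adjusted p = 0.00380 by edgeR) in MYO5BΔIEC. Avil, the tuft cell member of the family, was at -1.25 (adjusted p = 0.144 by edgeR). Its level was low and varied among controls, at 4.29 to 32.2 CPM, against 3.57 to 6.97 CPM in MYO5BΔIEC. Of 12 formins tested, 2 were higher in MYO5BΔIEC (Inf2 and Diaph1) and 3 in MYO5B(G519R), where Fhod1 was added at 0.54 (adjusted p = 0.00771 by edgeR). The formin shares were 16.7% and 25%, beside 13.5% and 13.1% of all genes. Fhod1 was at 0.40 in MYO5BΔIEC (adjusted p = 0.0555 by edgeR), and the difference between the models was not called (adjusted p = 0.838 by edgeR). Both α-actinins tested were the pair described above.

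Of 4 tropomyosins, Tpm2 alone was higher in both models (25%, beside 13.5% and 13.1% of all genes). Its log2 fold change was 1.59 (adjusted p = 0.0493 by edgeR) in MYO5BΔIEC and 1.27 (adjusted p = 0.0387 by edgeR) in MYO5B(G519R). Tpm2 was scarce, with a mean under 5 CPM over the control and MYO5BΔIEC cultures. In treated against control enteroids Tpm2 was not called and Tpm3 was called higher. The models gave these values for the other tropomyosins. Tpm3 was at 0.35 and 0.40 and Tpm4 at 0.16 and 0.08, none of which passed. Among transgelins and calponins, Cnn2, a calponin of nonmuscle cells, went from 13.8 ± 2.63 CPM in control to 26.8 ± 5.49 in MYO5BΔIEC and 30.2 ± 1.96 in MYO5B(G519R), which gave log2 fold changes of 0.97 (adjusted p = 0.00564 by edgeR) and 1.13 (adjusted p = 0.00204 by edgeR). Cnn3 was lower in MYO5BΔIEC, at -0.68 (adjusted p = 0.0418 by edgeR).

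Actin itself was also higher. Actb, the β-actin gene, was at 1323 ± 223 CPM in control, 2354 ± 381 in MYO5BΔIEC (log2 fold change 0.84, adjusted p = 0.00895 by edgeR) and 2304 ± 251 in MYO5B(G519R) (0.80, adjusted p = 0.00770 by edgeR). Actg1, the γ-actin gene, was at 0.64 (adjusted p = 0.0523 by edgeR) and 0.56 (adjusted p = 0.0764 by edgeR).

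Focal adhesion linkers had 6 of 9 genes higher (66.7%, beside 13.5% and 13.1% of all genes) and none lower in both models. These were Vcl, Tln1, Zyx, Pxn, Lasp1 and Pdlim7. Lasp1, a LIM and SH3 protein at adhesions, had the largest log2 fold change of the list in MYO5BΔIEC, 1.24 (SE 0.14, adjusted p = 0.00139 by edgeR), and was at 1.09 (SE 0.15, adjusted p = 0.00213 by edgeR) in MYO5B(G519R). Tes and Pdlim1 of the same list had negative values that did not pass, at -0.13 and -0.21 in MYO5BΔIEC. Of 10 nonmuscle myosin II genes, the heavy chains Myh9 and Myh14 were higher (20%, beside 13.5% of all genes in MYO5BΔIEC and 13.1% in MYO5B(G519R)). Myh14 went from 207 ± 58.2 CPM to 624 ± 101 in MYO5BΔIEC (log2 fold change 1.60, adjusted p = 0.00168 by edgeR) and 573 ± 90.3 in MYO5B(G519R) (1.47, adjusted p = 0.00225 by edgeR).

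Among severing and monomer-binding genes 5 of 17 were higher in MYO5BΔIEC (29.4%, beside 13.5% of all genes). The 5 were Cap1, Limk1 and the cofilin phosphatase genes Ssh1, Ssh2 and Ssh3. The cofilin genes Cfl1 (-0.33, adjusted p = 0.256 by edgeR) and Cfl2 (-0.07, adjusted p = 0.832 by edgeR) did not pass. Cap2 was the gene of this list with a lower level, at -1.89 (adjusted p = 0.00677 by edgeR). Its mean over the control and MYO5BΔIEC cultures was under 5 CPM. Wasf2, an activator of the Arp2/3 complex, was higher at 0.89 (adjusted p = 0.00410 by edgeR), and Eps8, which caps barbed ends in microvilli, was higher at 0.88 (adjusted p = 0.00404 by edgeR). Mkl1, an actin-sensing coactivator of SRF, was higher at 0.95 (adjusted p = 0.00481 by edgeR), and Srf itself was at 0.43 (adjusted p = 0.0653 by edgeR) in MYO5BΔIEC and higher at 0.57 (adjusted p = 0.00638 by edgeR) in MYO5B(G519R).

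**Figure D4:**
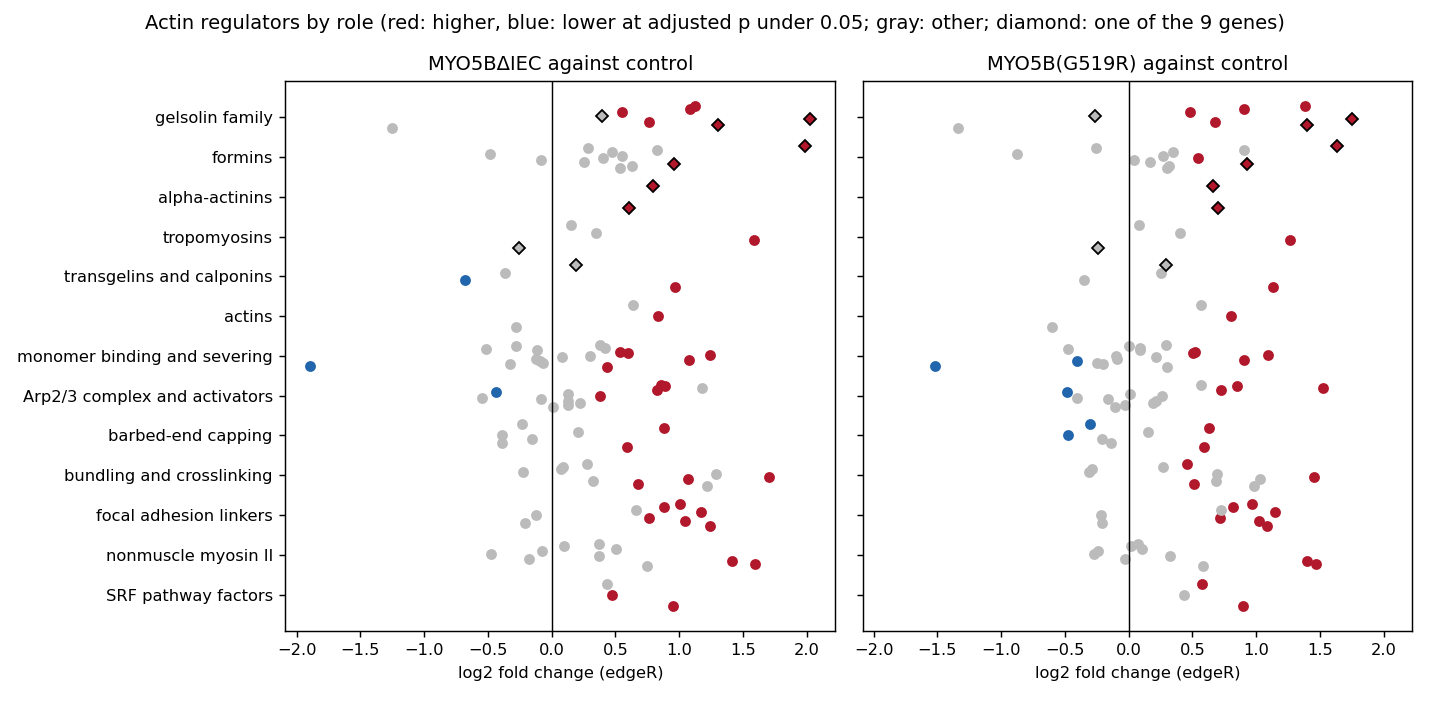
Log2 fold change of each tested gene in 13 role lists for MYO5BΔIEC (left) and MYO5B(G519R) (right) against the same control cultures, in red or blue where the adjusted p is under 0.05. The gelsolin family and the focal adhesion linkers each have 6 red points in both panels, and the diamonds are the 9 genes.

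The genes most like each of the 9 were found by the root mean square difference of log2 CPM over the 16 cultures, after each gene was centered on its own mean, among 10865 genes with a mean of at least 5 CPM. The nearest gene to Tpm1 was Pdlim1, at a difference of 0.0417 on the log2 scale, and the next, Arf2, was at 0.103, beside a median of 0.37 over all genes. Such differences depend on how much a gene varies, so they do not rank the 9 genes. Tpm1 varied least of the 9, at a root mean square of 0.208 about its own mean, beside 1.03 for Gsn and 0.919 for Inf2. Pdlim1, a LIM protein that binds α-actinin and is on the adhesion linker list, had means of 155 CPM in control, 135 in MYO5B(G519R), 134 in MYO5BΔIEC and 177 in treated enteroids. Tpm1 and Pdlim1 thus shared low values in 3 cultures of each model and high values in treated cultures 2, 3 and 4.

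Gsn was closest to the tight junction gene Cldn4 (0.216) and the integrin gene Itgb4 (0.256), Inf2 to Plxna1 (0.144) and Osbpl5 (0.194), and Diaph1 to Rbm47 (0.0898) and Tsc2 (0.0949). Actn4 was closest to Vat1 (0.0615) and Ap3d1 (0.0682), and Actn1 to Lsr (0.0993) and Rtn4 (0.117). Capg was closest to Slc45a3 (0.272) and to the goblet cell gene Clca1 (0.293), which went from 37.4 CPM in control to 375 in treated enteroids. Scin was closest to Slc41a2 (0.286) and to the enterocyte gene Apoa4 (0.311), and Tagln2 to Ripk3 (0.104) and Tmem115 (0.105). Among the 9 genes the closest pairs were Diaph1 with Actn4 (0.185), Actn1 with Actn4 (0.202) and Diaph1 with Actn1 (0.206), and the farthest was Scin with Capg (1.17). These distances describe patterns over cultures that share groups, and are given without a test.

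**Figure D5:**
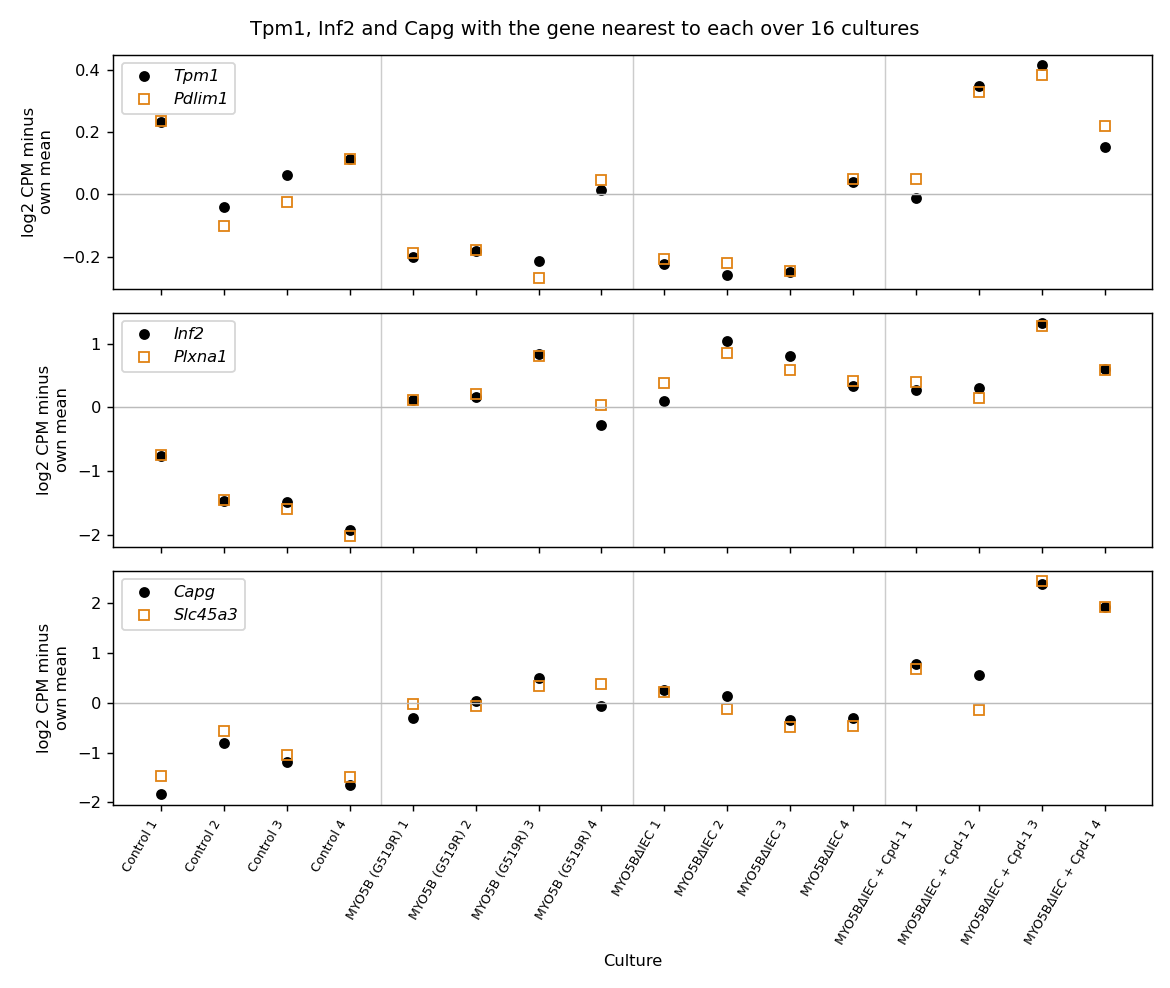
Log2 CPM minus each gene's own mean in the 16 cultures for Tpm1, Inf2 and Capg (black) and the gene nearest to each (orange squares), with gray lines between the groups. Tpm1 and Pdlim1 nearly coincide (root mean square difference 0.0417), and Capg and Slc45a3 are both highest in treated cultures 3 and 4.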

How the data were processed

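According to the methods and the submitters' processing notes, mRNA was captured with poly-T, paired-end reads were aligned to GRCm38 (mm10) with STAR 2.5, and the authors deposited read counts per gene from HTSeq 0.6.1 and FPKM made from them. Strand was not described as marked, and the treatment of reads that match several positions is not given in the sources used here, so close paralogs are uncertain. Genes overlapping the 9 had at most 59 counts in any culture.

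The 9 genes and all lists were chosen with earlier results of these data known. Genes were named as the 9, Myo5b, the gene of each role list with the largest change in MYO5BΔIEC among those called whose mean reached 5 CPM, and the 2 genes nearest to each of the 9. Other genes were chosen after their values were seen. A gene that this rule names is not reported here.

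The count test was the quasi-likelihood test of edgeR 4.0.16 (R 4.3.3) with TMM scaling, 4 cultures against 4, on genes reaching 10 counts in 2 or more of the 8 cultures, and was checked on simulated data. FPKM served for levels between genes and for ratios. Intervals cover 95%. The alternatives were DESeq2 1.42.0, its size factors in edgeR, mitochondrial genes left out of library sizes, filterByExpr, no filter, all 4 groups in 1 fit, a replicate block, limma 3.58.1 on log2(FPKM + 1) and log2(FPKM + 0.1), removal of the length trend, and each culture left out. Promoter windows were from RefSeq.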

Additional observations from a re-analysis of the deposited data

Results flagged for a closer look

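Within each group of 4 cultures, the highest and lowest CPM of each of the 9 genes was examined for a gap to its neighbor that took up most of the range of the group. In 5 of the 36 groups examined 1 culture stood apart in this way, and chance gives about 1 in 20. Diaph1 was highest in control culture 1, at 75.2 CPM, and lowest in MYO5BΔIEC culture 4, at 99.6 CPM, so the pair of groups still did not overlap. Actn4 was highest in MYO5B(G519R) culture 3, at 723 CPM. Tpm1 was highest in culture 4 of both models, at 388 CPM in MYO5B(G519R) and 394 CPM in MYO5BΔIEC, where the other 3 cultures of each model lay at 321 to 338 CPM.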

How the results depend on the processing

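Gsn, Capg, Inf2, Diaph1 and Actn4 remained higher in all 3 comparisons with control under the 10 alternatives and without each of 8 cultures. Without 1 culture, the 9 genes included 5 to 6 calls for MYO5BΔIEC, 5 to 8 for MYO5B(G519R) and 6 to 7 for treated enteroids against control. The corresponding ranges were 26 to 58, 32 to 66 and 36 to 63 for the 102 actin regulators and 2963 to 7474, 2880 to 8146 and 2957 to 7459 for all genes, and the highest of each was without control culture 1. The count over all genes fell below the reported one by over 1.5 times in MYO5BΔIEC without control culture 3 or 4 or MYO5BΔIEC culture 2 (2963 to 2983), in MYO5B(G519R) without control culture 3 or 4 or MYO5B(G519R) culture 1 or 2 (2880 to 3164), and in treated enteroids without control culture 2, 3 or 4 or treated culture 3 or 4 (2957 to 3399). The 26 actin regulators were without control culture 3. For treated against vehicle-treated MYO5BΔIEC enteroids these ranges were 0 to 0, and DESeq2 called 1 of the 9 genes, the same 1 actin regulator and 91 genes, while no filter gave 1, 1 and 12. Between the models 0 to 2 genes were called without 1 culture, 4 with DESeq2, 2 with no filter and 0 with either form of limma. The log2 ratio of Inf2 to Diaph1 ranged over 0.90 to 1.22 in MYO5BΔIEC and 0.53 to 0.83 in MYO5B(G519R), Actn1 to Actn4 over -0.26 to 0.01 and -0.03 to 0.24, and Gsn to Scin plus Capg over 1.13 to 1.72 and 1.153 to 1.74. From counts, the last was 1.37 in MYO5B(G519R) (exact permutation p = 0.0286).

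Values near 0 changed sign, none of them called. Over the fits without 1 culture, Scin in treated against control enteroids ranged from -0.23 (without control culture 1) to 0.23, and was also below 0 without treated culture 1 (-0.14) or 2 (-0.02). Inf2 in treated against vehicle ranged from -0.25 (without treated culture 3) to 0.22, and was below 0 without MYO5BΔIEC culture 1 (-0.10) or 4 (-0.05). Between the models, Capg ranged from -0.074 to 0.22, Tpm1 from -0.031 to 0.098, and Diaph1 reached 0.0016 and 0.0014. Tpm1 in treated against control was -0.011 with the length trend removed. The causes were not tested. Replicate numbers were not taken as pairs. Same-number correlations ranged from negative to positive in the comparisons with control and of treated with vehicle. Each treated culture correlated better with a vehicle-treated culture of another number, at 0.402, 0.569, 0.237 and 0.269 for cultures 1 to 4. Between the models the same-number correlations were 0.157, 0.083, 0.59 and 0.653, with 1 under 0.1. Number 2 there correlated better with another number (0.203). With the replicate block, 6 of the 9 genes were called in each comparison with control, and 3647, 3691 and 4401 genes in all, and between the models 0 of the 9 and 1 gene in all. The 4 cultures per group limit the precision.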
